A study of Mus musculus with 6 samples.

Results

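The transcripts of the cytosolic ribosome and of the factors that start and extend protein chains were measured in the inguinal white adipose tissue (iWAT) of WT and Zip13-KO mice. Members were taken by gene symbol: the proteins of the large and small ribosomal subunits (Rpl, Rps, Rplp0 to Rplp2 and Rpsa), the initiation factors (Eif1 to Eif6) and the elongation factors (Eef1 and Eef2), without the kinases of eIF2. By the RefSeq accession of its probe, the array carried 146 such genes among 21368 named genes. Of these, 81 were ribosomal proteins, 52 belonged to the initiation symbols and 13 to the elongation symbols. Enough signal for a test was seen for 142 of them, each well above background on all 6 arrays, among 15306 genes tested.

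RNA samples from iWAT of WT and Zip13-KO mice aged 10 weeks, 3 per genotype, were each hybridized alone to 1 array (the 1-colour assay), where a brighter spot means more of the transcript that its probe captures. ZIP13, encoded by Slc39a13, is a zinc transporter. The knockout allele replaced exons 6 to 8 with a Neo cassette in R1 embryonic stem cells, was present in the whole body, and had been backcrossed to C57BL/6J for at least 7 generations. Control mice were WT littermates, and all mice received powdered food because of the missing teeth (hypodontia) of the knockout mice. The labels give neither the sex of the animals nor whether each array was a separate animal, so the p values measure only the spread between these 3 and 3 samples.

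The ribosome reads messenger RNA and joins amino acids into protein. Its small subunit decodes the message and its large subunit forms the peptide bond. Initiation factors bring the first tRNA, the message and the small subunit together: eIF2 delivers the initiator tRNA and is recharged by eIF2B, eIF3 holds the small subunit, and the eIF4F group recognises the cap of the message. Elongation factors then bring in each charged tRNA (eEF1A, recharged by the eEF1B subunits) and move the ribosome along (eEF2). Many messages for these proteins begin with a cytosine followed by a run of pyrimidines, a sequence through which their translation follows mTORC1 activity.

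The deleted gene followed its label. The log2 signal of Slc39a13 was 11.30, 10.87 and 10.72 in WT samples and 6.76, 6.66 and 6.47 in Zip13-KO samples. It was lower by 4.33 ± 0.17 on the log2 scale (fitted difference ± SE, n = 3 and 3, limma, adjusted p = 0.00128). All arrays lay on 1 slide and in 1 scan. Between 62.5% and 63.2% of spots on the WT arrays and between 58.8% and 60.4% on the Zip13-KO arrays were well above background. The Y-linked member Eif2s3y was well above background on all 6 arrays and Xist on 0 of 6.

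The cell makeup read from marker genes also moved with genotype. Macrophage markers were below the WT mean in 12 of 12 cases, with a log2 summed signal of 16.67 to 17.39 in WT and 15.56 to 15.99 in Zip13-KO arrays. Lymphocyte markers were below it in 12 of 12 (16.54 to 16.78 against 16.05 to 16.22), and markers of fibroblasts and stromal progenitors in 10 of 10 (18.10 to 19.23 against 17.90 to 18.21). Adipocyte markers were above it in 10 of 10 (18.79 to 19.28 against 19.52 to 19.59), brown and beige adipocyte markers in 8 of 8 (15.14 to 15.82 against 17.30 to 17.94), and endothelial markers in 8 of 9 (13.93 to 14.06 against 14.31 to 14.43). Muscle markers were highest on the array of Zip13-KO replicate 3 (13.58, against 11.43 to 12.47 on the other 5). Of 8 mammary epithelium markers, 4 were tested and 0 passed. Their summed signal was 8.37 in WT replicate 1 and 8.78 in Zip13-KO replicate 1, against 6.59 to 7.74 on the other 4 arrays, and the milk proteins Csn2, Csn3 and Wap were above background on 0 of 6. The part of these cell types in the results for the ribosome and the translation factors was not tested. In a bulk tissue, fewer cells of a type and less RNA per cell cannot be told apart.

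Ribosomal protein transcripts were lower in Zip13-KO iWAT by a small and similar amount. Of 79 tested, 78 had a fitted difference below 0, with a median of -0.23 on the log2 scale, a level 14.7% below WT. The differences ran from -0.44 for Rpl5 to 0.12 for Rps4l. Over all 15306 genes tested the median was -0.00 and 50.1% lay below 0. At an adjusted p under 0.05, 37 of 79 (46.8%) were lower and 0 were higher (limma, Benjamini-Hochberg), where 15.2% of all genes tested were lower and 19.3% higher. At the unadjusted p, 54 were lower. The share of all genes tested that were lower at the unadjusted p, without a fold threshold, is not given. This count therefore has no background and does not show an excess among ribosomal proteins. Over all 142 members, 4 were higher and 45 lower at the adjusted p, together 34.5% of the members, which equals the 34.5% of all genes tested. None of the 79 ribosomal proteins passed the 1.5-fold threshold as well, which 8.38% of all genes passed in the lower direction, and at the unadjusted p the count with that threshold was also 0.

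On each array, the median over the 79 ribosomal proteins was set against the WT mean of each gene. It was 0.03, -0.05 and 0.02 in WT replicates 1 to 3 and -0.26, -0.25 and -0.18 in Zip13-KO replicates 1 to 3. The 3 Zip13-KO arrays therefore lay below all 3 WT arrays, and the spread within a genotype was smaller than the gap. For 71 of the 79 genes the 3 Zip13-KO values lay below the 3 WT values, against 25.9% of all genes. Over all 142 members, 11 were apart in the higher and 90 in the lower direction, where 55.1% of all genes were apart in either. The median of 51 initiation factors stayed near 0 on the same arrays, at -0.03, -0.00 and 0.05 in WT and 0.01, -0.06 and -0.03 in Zip13-KO samples. The median of the 12 elongation genes was 0.01, -0.01 and 0.00 in WT and -0.11, -0.26 and -0.06 in Zip13-KO samples.

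**Figure D1:**
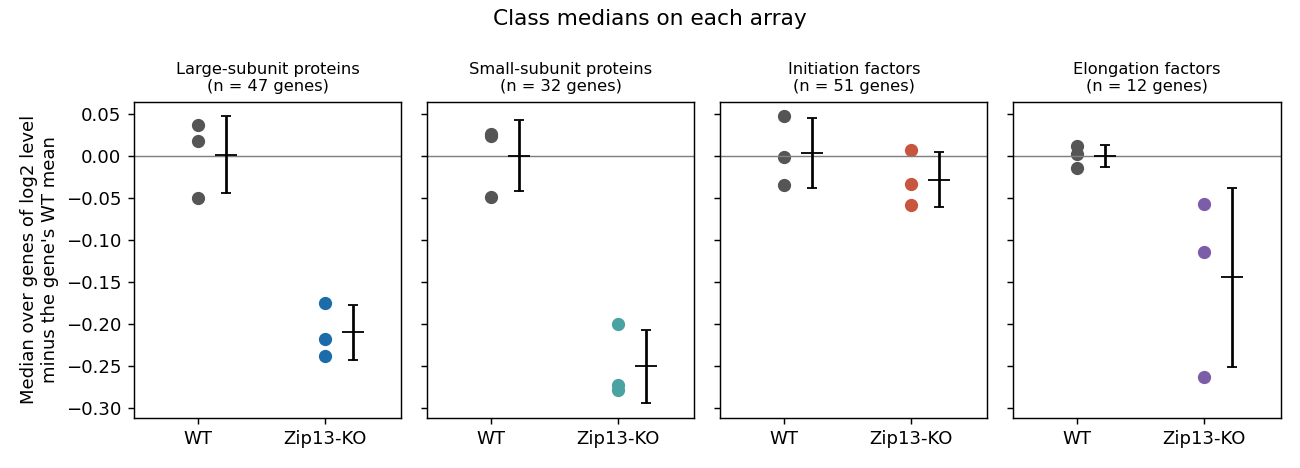
Median log2 difference from the WT mean of each gene, per array, for the large-subunit proteins, the small-subunit proteins, the initiation factors and the elongation factors. Points are arrays, and the bars give the mean ± SD of 3 arrays. The 3 Zip13-KO points lie below all WT points for large-subunit proteins (-0.24 to -0.17) and for small-subunit proteins (-0.28 to -0.20). Those for initiation factors (-0.06 to 0.01) overlap WT.

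The size of this difference depended on how arrays were scaled. With each array centred on its 75th percentile in place of quantile normalization, 70 of 79 ribosomal proteins remained below 0 and the median was -0.13, but 0 passed the adjusted p (lowest 0.0571) and 15 were lower at the unadjusted p. Leaving out Zip13-KO replicate 1 or 2 also left 0 of the single-gene calls (lowest adjusted p 0.0515 and 0.0507, with 31 and 33 lower at the unadjusted p), and leaving out WT replicates 1, 2 and 3 or Zip13-KO replicate 3 left 19, 16, 9 and 7. The arrays of all WT samples and Zip13-KO replicate 1 share the first position number on the slide, and those of Zip13-KO replicates 2 and 3 the other. With that position as a block the median was -0.26, 0 ribosomal proteins passed the adjusted p (lowest 0.0888) and 23 were lower at the unadjusted p, while over all genes 0 were called higher and 7 lower. The counts at the unadjusted p in these settings also lack a matching share of all genes tested, so no excess is read from them. The calls given for single ribosomal proteins are those of the quantile-normalized fit of all 6 arrays.

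Other bright genes did not share this direction. The ribosomal proteins were among the brightest spots, with a median log2 signal of 15.93. Other genes at least as bright as the dimmest ribosomal protein (Rps4l and Rpl39l left aside) numbered 686. Their median log2 signal was 14.66, so as a set they were dimmer than the ribosomal proteins. Their median difference was 0.09, with 43.3% below 0. At an adjusted p under 0.05, 213 of those were higher and 106 lower. Across the 79 ribosomal proteins, mean level and difference had a Pearson r of -0.18 and a Spearman rho of 0.04, a description across genes that share the same 6 arrays. At the probe level, 158 of 163 kept probes for ribosomal proteins lay below 0, with a median of -0.24.

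**Figure D2:**
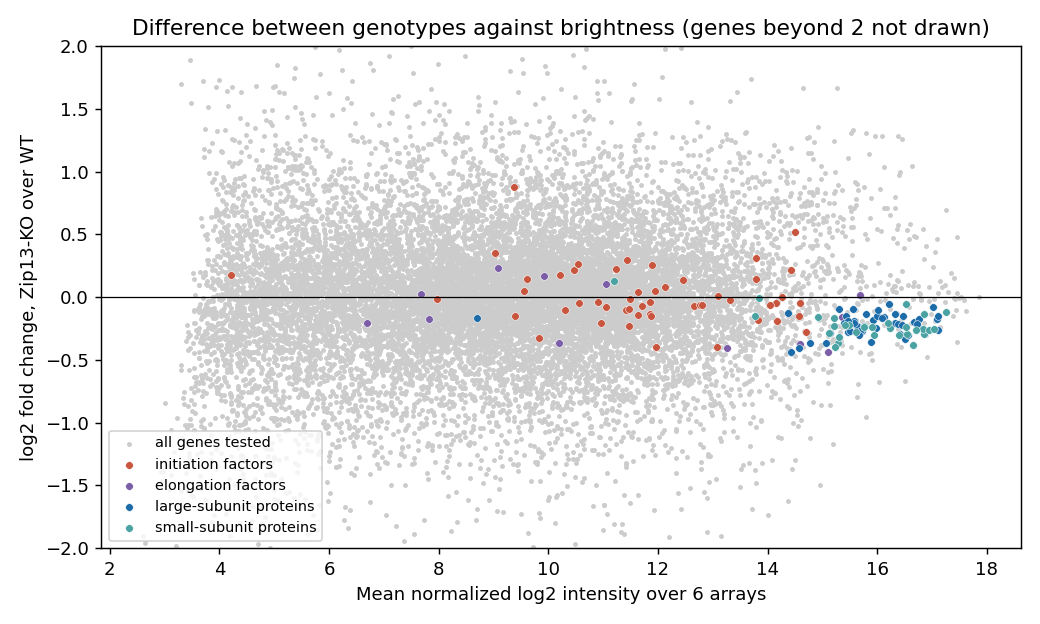
Mean log2 signal over the 6 arrays (x axis) against the fitted log2 difference, Zip13-KO minus WT (y axis), for all genes tested and for the members by role. The ribosomal proteins sit at the bright end in a narrow band around -0.23. The 686 other genes at least as bright as the dimmest of them (Rps4l and Rpl39l left aside) had a median difference of 0.09. Their median signal was lower (14.66 against 15.93).

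Large-subunit proteins were below WT in every one of the 47 genes tested, with a median of -0.21 (13.5% lower), and 18 (38.3%) passed the adjusted p. Of all genes tested, 15.2% were lower at that threshold. Rpl5, which binds the 5S ribosomal RNA, gave 14.75, 14.52 and 14.65 in WT and 14.13, 14.21 and 14.26 in Zip13-KO samples. It fell by 0.44 ± 0.089 (SE, limma adjusted p = 0.0152), the largest fall among ribosomal proteins. Every Zip13-KO value lay below every WT value. Rpl28 had the smallest adjusted p of the subunit. Its signals were 14.83, 14.73 and 14.77 in WT and 14.34, 14.36 and 14.43 in Zip13-KO samples, a fall of 0.40 ± 0.072 (adjusted p = 0.0114) with no overlap.

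Rpl36a, a protein of the large subunit, gave 15.03, 14.84 and 14.99 in WT and 14.56, 14.60 and 14.60 in Zip13-KO samples and fell by 0.37 ± 0.079 (adjusted p = 0.0182). At the other end of the subunit stood Rpl36, Rplp2 and Rpl13a. Rpl36 gave 16.27, 16.23 and 16.24 in WT and 16.18, 16.17 and 16.22 in Zip13-KO samples, a difference of -0.05 with a 95% interval of -0.21 to 0.11. Rplp2, an acidic protein of the stalk that recruits the elongation factors, gave 16.98, 17.05 and 17.16 against 16.98, 16.96 and 17.02, a difference of -0.08 (adjusted p = 0.467). Rplp1, its partner in the stalk, fell by 0.30 (adjusted p = 0.0289), and Rplp0, the base of the stalk, had a difference of -0.21 that did not pass (adjusted p = 0.0508). Rpl13a differed by -0.09 (adjusted p = 0.368). For Rpl13a and Rpl36 this place rests on the brightest probe. The other kept probes of Rpl13a differed by -0.32 and -0.41, and the mean of its kept probes by -0.27. The other kept probes of Rpl36 differed by -0.09 and -0.26.

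Small-subunit proteins showed the same direction, with a larger share past the adjusted p. The difference between the subunits was not tested. Of 32 genes, 31 were below WT, the median was -0.24 (15.4% lower), and 19 (59.4%) passed the adjusted p, against 15.2% of all genes in the lower direction. Rps18 gave 15.51, 15.34 and 15.43 in WT and 15.04, 14.94 and 15.11 in Zip13-KO samples, and fell by 0.40 ± 0.085 (adjusted p = 0.0179). Rps27a, which is made as a fusion with ubiquitin, gave 16.87, 16.76 and 16.89 in WT and 16.43, 16.45 and 16.48 in Zip13-KO samples. It fell by 0.38 ± 0.072 (adjusted p = 0.0127), the smallest adjusted p of the subunit. Rps15a gave 15.54, 15.36 and 15.49 against 15.05, 15.08 and 15.15, a fall of 0.37 ± 0.081 (adjusted p = 0.0195). In each of these 3 genes the genotypes did not overlap. Rps15a missed the threshold with the mean of its kept probes (-0.44, adjusted p = 0.0763) and in the deposited values table (-0.28, adjusted p = 0.0888). It also missed with 75th percentile scaling, normexp or no background correction (limma adjusted p = 0.104, 0.0997 and 0.105). The replicate and position blocks lost the call too (limma adjusted p = 0.0585 and 0.112), as did leaving out Zip13-KO replicate 1 or 2 (limma adjusted p = 0.0762 and 0.0722).

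The small-subunit genes with the highest fitted differences were Rps24 (-0.06, adjusted p = 0.514), Rps27l and Rps4l. Rps6, the classic substrate of the S6 kinases, differed by -0.24 with an adjusted p of 0.0516, and Rpsa, which is also known as a laminin receptor, by -0.21 (adjusted p = 0.0704). Both were named after their values were seen.

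**Figure D3:**
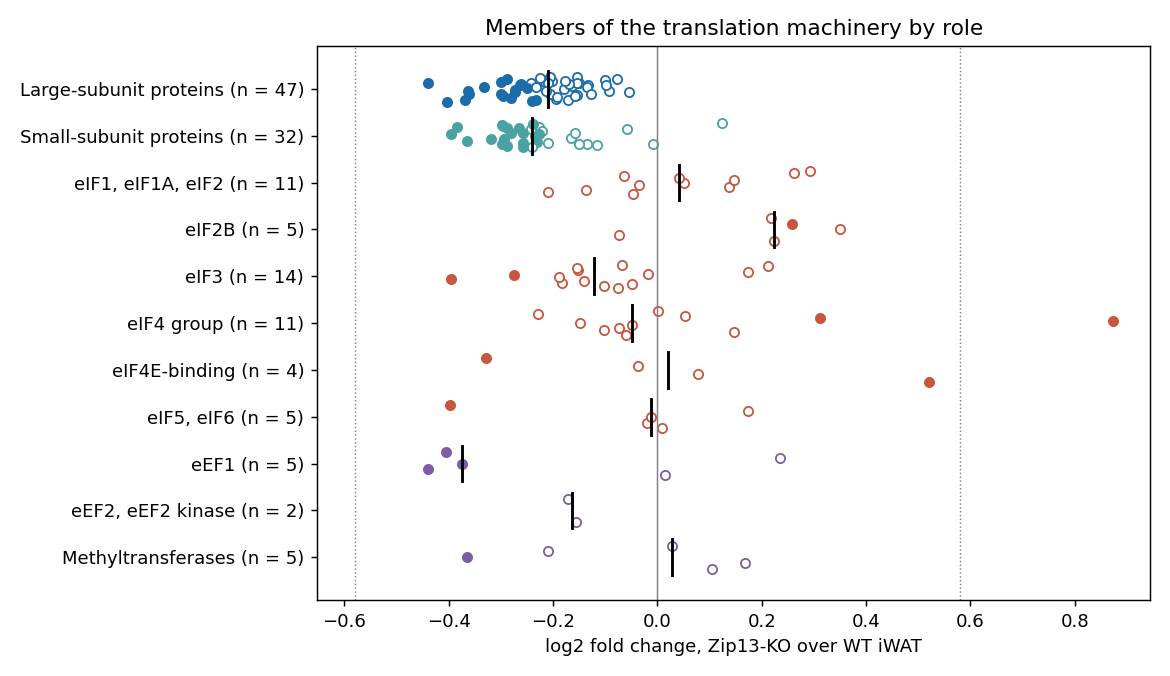
Fitted log2 difference, Zip13-KO minus WT, of each tested member except Eif4a3l1, by role. Filled points passed an adjusted p under 0.05 and open points did not, black bars are medians, and dotted lines mark 1.5-fold. Ribosomal proteins cluster below 0 (medians -0.21 and -0.24 for the large and small subunits), and only Eif4e3 lies beyond a dotted line.

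Several ribosomal proteins have a paralog, a sister gene whose product can take the same place. Of 5 such genes (Rps4l, Rps27l, Rpl39l, Rpl3l and Rpl10l), 3 were bright enough to test and did not pass the threshold, while Rpl32l, named after its value was seen, fell by 0.27 (adjusted p = 0.0353). Rps4x, the X-linked form, gave 15.31, 15.23 and 15.28 in WT and 14.99, 14.92 and 15.05 in Zip13-KO samples and fell by 0.29 ± 0.073 (adjusted p = 0.0279). Among the single-array omissions that call held only without WT replicate 1 (limma adjusted p up to 0.103 in the others). Rps4l, which RefSeq lists as non-coding, gave 11.10, 11.53 and 10.79 against 11.29, 11.23 and 11.27, a difference of 0.12 with an interval of -0.33 to 0.58. Those genotypes overlapped, and the interval holds the fall of Rps4x.

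Rps27 gave 17.00, 16.89 and 17.01 in WT and 16.64, 16.75 and 16.73 in Zip13-KO samples, and fell by 0.26 ± 0.076 (adjusted p = 0.0437). That call was lost in every single-array omission (limma adjusted p from 0.0562 to 0.145). It was also lost with 75th percentile scaling (-0.12, limma adjusted p = 0.368) and with the mean of kept probes (limma adjusted p = 0.0628). Rps27l, a paralog known as a p53 target, gave 13.90, 13.88 and 13.78 against 13.87, 13.85 and 13.81. Its difference was -0.01 with an interval of -0.18 to 0.16. The difference between the paralogs was not tested. Rpl3, a protein of the peptidyl transferase region, gave 15.84, 15.78 and 15.85 against 15.52, 15.45 and 15.59, and fell by 0.30 ± 0.074 (adjusted p = 0.0264). Rpl3 kept its call among the single-array omissions only without WT replicate 1 (limma adjusted p up to 0.0979 in the others). Its muscle paralog Rpl3l was too dim to test, above background on 2 of 3 arrays of each genotype.

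Rpl39 differed by -0.19 (adjusted p = 0.0923) and its paralog Rpl39l by -0.16 (adjusted p = 0.608), with the genotypes apart for Rpl39 and overlapping for Rpl39l. Rpl10 gave 17.15, 17.17 and 17.20 in WT and 16.99, 16.93 and 17.08 in Zip13-KO samples, a difference of -0.17 that did not pass (adjusted p = 0.119) although the genotypes did not overlap. Rpl10l, its testis paralog, was above background on 0 of 6 arrays. Because levels of different probes cannot be compared on an array, no order among paralogs was drawn from the signals.

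The start regions of a few members are shown because a pyrimidine run at the annotated start is the sequence feature most tied to this gene family. The sequences are RefSeq promoters on GRCm38.p6, on the strand of the gene, from 45 bases before to 15 bases after the annotated start (base 46), and capitals mark the unbroken run of C and T that begins at that start. The genes shown were picked by hand. Rpl28, Rps15a and Rps18 are among the members with the largest fall that have a promoter in the RefSeq table. All of them carry the run, which stood at 8 of 30 promoters of ribosomal proteins that passed the adjusted p, so they do not show its share. Rps4x is a fallen member without the run, Eef1a1 did not pass the test, and Eef1b2 fell the most among elongation factors.
Rpl28, chr7:4792920-4792979, plus strand: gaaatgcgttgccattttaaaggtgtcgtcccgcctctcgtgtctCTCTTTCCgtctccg
Rps15a, chr7:118116133-118116192, minus strand: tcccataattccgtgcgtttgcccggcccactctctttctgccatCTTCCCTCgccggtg
Rps18, chr17:33955651-33955710, minus strand: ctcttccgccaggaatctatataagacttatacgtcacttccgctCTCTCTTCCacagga
Rps4x, chrX:102189377-102189436, minus strand: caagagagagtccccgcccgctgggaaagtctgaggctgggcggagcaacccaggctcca
Eef1a1, chr9:78481710-78481769, minus strand: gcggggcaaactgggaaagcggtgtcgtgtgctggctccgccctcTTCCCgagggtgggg
Eef1b2, chr1:63176786-63176845, plus strand: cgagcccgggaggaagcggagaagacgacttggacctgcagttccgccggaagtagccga

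A run of this kind, a C at the annotated start followed by at least 4 C or T, stood at 14 of 72 ribosomal protein promoters (19.4%), at 2 of 52 for initiation factors (3.85%) and at 0 of 12 for elongation factors. Among all 32851 promoters of the table it stood at 2.51%. Allowing the run to start within 5 bases of the annotated start gave 43.1%, 23.1% and 8.33% of the 3 classes against 18.3% of all promoters. Ribosomal proteins that passed the adjusted p held the strict run at 8 of 30 promoters (26.7%), and those that did not at 6 of 39 (15.4%). These shares are a description of 110 members with a promoter in the table, some with more than 1. The Eef1a1 window begins with T at the annotated start and was not counted.

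Other promoter letters were searched on both strands of the window from 250 bases before to 50 after the start. CCGGAAG, the core letters of ETS-family sites, was in 34.7% of ribosomal protein promoters, 34.6% of initiation factor promoters, 8.33% of elongation factor promoters and 8.86% of all promoters. In the Eef1b2 window shown above these letters lie just after the annotated start. AAGATGGC, a YY1-type sequence, was in 9.72% of ribosomal protein, 9.62% of initiation factor and 8.33% of elongation factor promoters, and in 2.75% of all. TATAAA was in 9.72%, 7.69% and 8.33% of these 3 classes and in 13.6% of all. Each elongation share is 1 of 12 promoters. A match is a description of the letters in the window and was not set against binding in this tissue.

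Initiation factors showed no common direction. Of 51 tested, 30 lay below 0 with a median of -0.04. At an adjusted p under 0.05, 4 were higher (Eif4e3, Eif4ebp1, Eif4g1 and Eif2b4) and 4 lower (Eif6, Eif3f, Eif4enif1 and Eif3h), shares of 7.84% each, below the 19.3% and 15.2% of all genes. Eif4e3 was the only member of any class past the 1.5-fold threshold, which 18.7% of all genes passed in either direction. Of these 8 calls, leaving out Zip13-KO replicate 1, 2 or 3 kept 1, 0 and 2, and leaving out WT replicate 1, 2 or 3 kept 5, 5 and 4.

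Few of the factors that carry the initiator tRNA, or of the subunits of their exchange factor eIF2B, passed the test. None of the 11 genes of eIF1, eIF1A, eIF2 and the related ternary complex factors passed (median 0.04), and 1 of 5 eIF2B subunits did. Of all genes tested, 34.5% passed in either direction. The gamma subunit of eIF2 is encoded on both sex chromosomes. Eif2s3x differed by 0.26 (adjusted p = 0.184) and Eif2s3y by 0.29 (adjusted p = 0.234), and Eif2s3y overlapped between genotypes, with 11.33, 10.96 and 11.61 in WT and 11.52, 11.74 and 11.51 in Zip13-KO samples. For Eif2s1, the alpha subunit that is phosphorylated in the stress response, 2 probes disagreed (-0.48 and 0.04).

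For eIF2B, 4 of 5 subunits lay above WT on every Zip13-KO array, and the median of the 5 was 0.22. Non-overlapping genes in the higher direction were 29.2% of all genes. Eif2b4 gave 11.72, 11.80 and 11.79 in WT and 12.00, 12.04 and 12.05 in Zip13-KO samples, and rose by 0.26 ± 0.068 (adjusted p = 0.0319), a call lost without any 1 of the 6 arrays (adjusted p up to 0.105). Eif2b3 gave 8.56, 8.95 and 9.06 against 9.25, 9.23 and 9.14, a difference of 0.35 that did not pass (adjusted p = 0.101). Eif2b1 differed by 0.22 (adjusted p = 0.0799), Eif2b5, the catalytic subunit, by 0.22 (adjusted p = 0.0899), and Eif2b2 by -0.07 (adjusted p = 0.512).

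Of 14 genes of eIF3, 12 lay below 0 with a median of -0.12, which was -0.03 with 75th percentile scaling. At the adjusted p, 2 (14.3%) were lower, near the 15.2% of all genes. Eif3f gave 13.29, 13.11 and 13.41 in WT and 12.82, 12.82 and 12.97 in Zip13-KO samples, and fell by 0.40 ± 0.10 (adjusted p = 0.0309). Eif3h gave 14.86, 14.81 and 14.86 against 14.53, 14.55 and 14.63, and fell by 0.28 ± 0.070 (adjusted p = 0.0293). Both are MPN-domain subunits of the complex. With 75th percentile scaling both missed the threshold, and Eif3h then differed by -0.11 (adjusted p = 0.317). Eif3l stood opposite, at 0.21 with no overlap between genotypes (adjusted p = 0.0975).

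Among the factors at the cap, the rises were in an eIF4E relative, in the scaffold and in a repressor. Eif4e3, a cap-binding relative of eIF4E, gave 8.49, 9.14 and 9.18 in WT and 9.79, 9.87 and 9.78 in Zip13-KO samples. It rose by 0.87 ± 0.19 (1.83-fold, adjusted p = 0.0195), and all Zip13-KO values lay above all WT values, of which replicate 1 was the lowest. The call was lost without Zip13-KO replicate 1, 2 or 3 (0.89, 0.85 and 0.89, adjusted p = 0.0640, 0.0678 and 0.0549). Eif4e itself differed by -0.05 (adjusted p = 0.702) and Eif4e2 by -0.15 (adjusted p = 0.218).

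Eif4g1, the scaffold that joins the cap-binding protein to the helicase, gave 13.52, 13.66 and 13.72 in WT and 13.98, 13.93 and 13.92 in Zip13-KO samples and rose by 0.31 ± 0.081 (adjusted p = 0.0308). Eif4g3, a related scaffold, differed by -0.23 and narrowly missed the threshold (adjusted p = 0.0512). The helicases Eif4a1 and Eif4a2 differed by -0.06 and 0.15 and did not pass (adjusted p = 0.644 and 0.229).

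Eif4ebp1, a repressor that holds eIF4E until mTORC1 phosphorylates it, gave 13.98, 14.43 and 14.29 in WT and 14.82, 14.55 and 14.89 in Zip13-KO samples. It rose by 0.52 ± 0.15 (1.44-fold, adjusted p = 0.0408) without overlap, and the call held among the single-array omissions only without WT replicate 2. Its relatives Eif4ebp2 and Eif4ebp3 differed by 0.08 and -0.04 (adjusted p = 0.444 and 0.789). Eif4enif1, which carries eIF4E into the nucleus, gave 10.03, 9.99 and 9.99 in WT and 9.62, 9.66 and 9.74 in Zip13-KO samples and fell by 0.33 ± 0.070 (adjusted p = 0.0174).

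Of the late factors, Eif6 was lower. It keeps the large subunit from joining too early and takes part in making it. Its signals were 12.19, 12.23 and 12.08 in WT and 11.80, 11.73 and 11.77 in Zip13-KO samples, a fall of 0.40 ± 0.076 (adjusted p = 0.0133) that missed the threshold only without Zip13-KO replicate 2 (adjusted p = 0.0566) among the omissions. Eif5a, the hypusine-bearing factor, differed by -0.02 (interval -0.22 to 0.18), and its paralog Eif5a2 by -0.01 (interval -0.32 to 0.29). Eif5b, the factor that joins the subunits, had a dim probe (mean log2 signal 4.22) and a difference of 0.17 (adjusted p = 0.509).

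**Figure D4:**
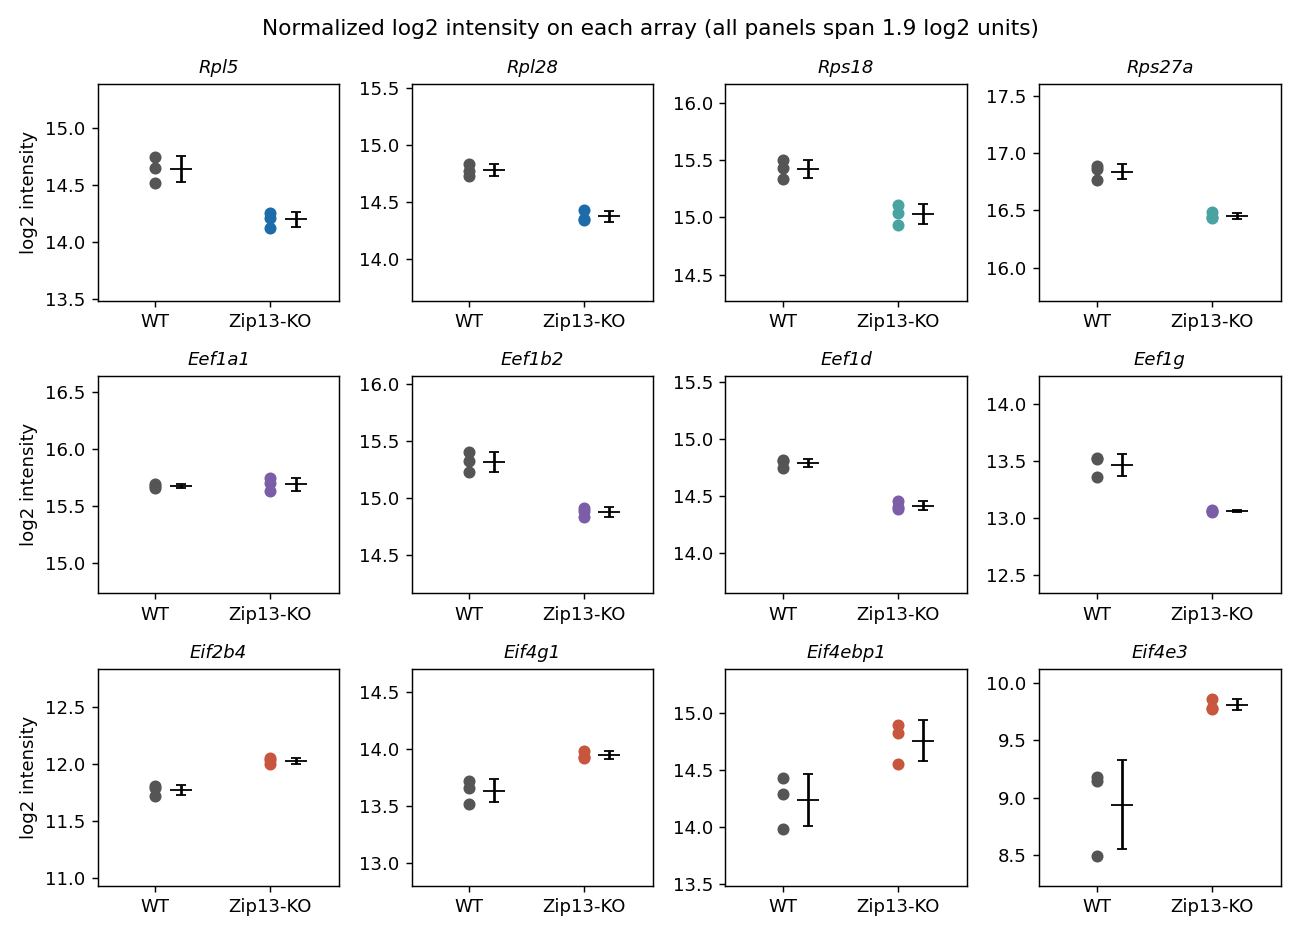
Log2 signal on each array for 12 members, with the mean ± SD of the 3 arrays of a genotype. Rpl5, Rpl28, Rps18, Rps27a and the eEF1B subunits Eef1b2, Eef1d and Eef1g lie lower in Zip13-KO samples, Eef1a1 overlaps, and Eif2b4, Eif4g1, Eif4ebp1 and Eif4e3 lie higher.

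The elongation factors divided by subunit. The GTP-binding factor eEF1A did not pass the test, while each of the 3 subunits of its exchange complex eEF1B fell. Eef1a1 gave 15.69, 15.68 and 15.66 in WT and 15.74, 15.63 and 15.70 in Zip13-KO samples, a difference of 0.02 with an interval of -0.15 to 0.18, and its 2 kept probes differed in sign (-0.08 and 0.02). Eef1a2, the muscle and neuron form, was above background on 0 of 6 arrays.

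Eef1b2, the alpha subunit and nucleotide exchanger, gave 15.32, 15.23 and 15.40 in WT and 14.89, 14.84 and 14.91 in Zip13-KO samples, and fell by 0.44 ± 0.077 (adjusted p = 0.0110). Eef1g, the gamma subunit, gave 13.52, 13.36 and 13.53 against 13.06, 13.07 and 13.06, and fell by 0.41 ± 0.078 (adjusted p = 0.0135). Eef1d, the delta subunit and also an exchanger, gave 14.82, 14.75 and 14.80 against 14.38, 14.46 and 14.40, and fell by 0.37 ± 0.069 (adjusted p = 0.0121). The Zip13-KO values of all 3 lay below every WT value, and the Zip13-KO spread was small. The difference between eEF1A and the eEF1B subunits was not tested. Without Zip13-KO replicate 1, Eef1d and Eef1g lost their calls, and without replicate 2 Eef1g did, while Eef1b2 kept its call in each of the 6 omissions. With 75th percentile scaling the median of the 3 subunits was -0.28, and Eef1d missed the threshold (-0.20, limma adjusted p = 0.0921). Eef1d also missed it with the replicate number as a block (limma adjusted p = 0.0510).

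Eef2, the translocase, gave 15.42, 15.40 and 15.49 in WT and 15.30, 15.19 and 15.35 in Zip13-KO samples. Its difference of -0.16 had an interval of -0.35 to 0.034 and did not pass (adjusted p = 0.164), although the genotypes did not overlap. Eef2k, the kinase that inhibits eEF2, differed by -0.17 (adjusted p = 0.406). Eef1e1, a scaffold of the tRNA synthetase complex that carries an elongation symbol, differed by 0.24 (adjusted p = 0.274).

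The enzymes that methylate elongation factors did not move together. Eef1akmt4 gave 10.30, 10.56 and 10.28 in WT and 10.03, 10.03 and 9.97 in Zip13-KO samples, and fell by 0.37 ± 0.098 (adjusted p = 0.0334), a call lost without WT replicate 2 (adjusted p = 0.0600) or any Zip13-KO replicate (up to 0.0960). Eef1akmt2 differed by 0.17 (adjusted p = 0.113) and Eef1akmt1 by 0.11 (adjusted p = 0.504). Of the 12 elongation genes tested, 4 (33.3%) were thus lower and 0 higher at the adjusted p, against 15.2% and 19.3% of all genes, with a median of -0.16 and 7 below 0.

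Probes of the same gene bore on these readings. Among ribosomal proteins with more than 1 kept probe, all probes had the same sign in 46 of 50 genes, against 12 of 18 for initiation genes and 1 of 4 for elongation genes. The 4 ribosomal proteins with probes of both signs were Rpl21, Rpl22, Rps12 and Rps24, the last with probes from -0.22 to 0.21. Rps15a, whose fall is described above, had probes from -0.72 to -0.25, and the probe at -0.72 was dim (mean log2 signal 3.34). Whether probes also bound the many processed pseudogenes of ribosomal proteins was not tested.

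**Figure D5:**
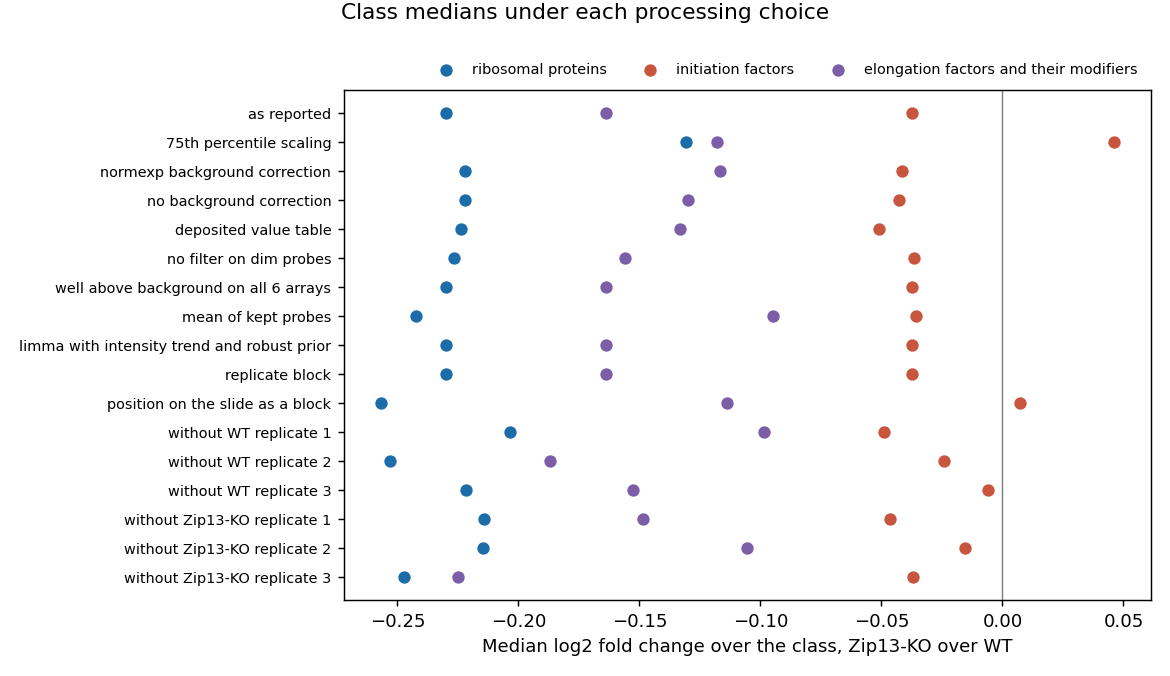
Median log2 difference, Zip13-KO minus WT, of each class under each way of processing the arrays. The ribosomal protein median lay below 0 in every setting plotted (-0.26 to -0.13) and was nearest 0 with 75th percentile scaling, while the initiation median stayed between -0.05 and 0.05.

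Genes around this machinery were read from lists. Ribosomal proteins whose symbols fall outside the naming rule followed the rest. All 6 tested lay below 0 with a median of -0.21, and 2 fell, Rpl36al (-0.29, adjusted p = 0.0211) and Fau (-0.23, adjusted p = 0.0418). Rack1, a scaffold on the small subunit, differed by -0.19 (adjusted p = 0.0783). These and the genes of the next paragraph were named after their values were seen.

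Factors that build ribosomes showed no clear separation of the genotypes. Of 36 genes of RNA polymerase I and ribosome biogenesis, 26 lay below 0 with a median of -0.14, and at the adjusted p 7 (19.4%) were lower and 2 higher, near the background of 15.2% for lower genes. On single arrays the median of the list was -0.14, 0.05 and 0.08 in WT and -0.15, -0.13 and -0.14 in Zip13-KO samples, so WT replicate 1 lay level with the Zip13-KO arrays. Those that fell were Fbl, the methyltransferase fibrillarin (-0.49, adjusted p = 0.0126), Nop58, its partner in box C/D particles (-0.48, adjusted p = 0.0109), the nucleolar proteins Npm1 and Ncl (-0.39 and -0.38, adjusted p = 0.0257 and 0.0236), Nhp2, Nip7 and Tsr1. Polr1d and Nop10 rose (0.27 and 0.26, adjusted p = 0.0380 and 0.0329).

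Genes that set the activity of the machinery included some larger changes. In the mTORC1 and S6 kinase list, 3 of 14 genes passed with the fold threshold, all upward, where 10.3% of all genes did. Deptor, an mTOR inhibitor, gave 10.12, 10.81 and 10.65 in WT and 11.51, 11.56 and 11.41 in Zip13-KO samples and rose by 0.97 ± 0.18 (adjusted p = 0.0129). Mknk2, a kinase of eIF4E, rose by 0.72 (adjusted p = 0.0202) and Mtor by 0.66 (adjusted p = 0.0141). The related kinase Mknk1 fell by 0.41 (adjusted p = 0.0279). Without Zip13-KO replicate 2 all 3 rises missed the threshold (adjusted p = 0.0510, 0.0614 and 0.0553), as did those of Deptor and Mknk2 without replicate 1 (0.0506 and 0.0712) and that of Mknk2 without replicate 3 (0.0597). The list holds genes of opposite effect on mTORC1, and its median was 0.23.

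In the list of eIF2 kinases and the integrated stress response, 3 of 12 genes passed with the fold threshold, 2 upward and 1 downward, where 18.7% of all genes passed in either direction. Trib3, a pseudokinase induced by ATF4, gave 9.16, 8.58 and 9.21 in WT and 9.90, 9.85 and 9.70 in Zip13-KO samples and rose by 0.83 ± 0.18 (adjusted p = 0.0186), a call lost without Zip13-KO replicate 1 or 2 (adjusted p = 0.0678 and 0.0644). Asns, the asparagine synthetase, gave 11.95, 12.42 and 12.34 against 12.97, 13.01 and 12.98 and rose by 0.75 ± 0.14 (adjusted p = 0.0118). Eif2ak2, the interferon-induced kinase PKR, fell by 0.80 ± 0.21 (adjusted p = 0.0299), and its call held among the single-array omissions only without WT replicate 3 (adjusted p up to 0.0920 in the others). Atf4, the factor whose translation rises in this response, differed by -0.16 (adjusted p = 0.236) and Ddit3 by 0.15, and neither passed.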

How the data were processed

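Total RNA from iWAT was hybridized to Agilent SurePrint G3 Mouse GE 8x60K arrays, 3 per genotype. The authors deposited scanner files of Feature Extraction 11.5.1.1, in which the processed signal of a spot is an intensity, corrected for background but not normalized between arrays, and the median signal. The deposited values table holds log2 of the median signal, quantile normalized by the authors (6 columns, each with a median near 6.24).

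Here log2 of the processed signal was used. Control and outlier spots were left out, spots of a probe were averaged and arrays were quantile normalized, as in the study's methods. Of 55681 probes, 28331 had a RefSeq symbol (accessions without version, GRCm38.p6), and 20315 of those were kept because every array of 1 genotype or the other (3 arrays) measured them well above background. The brightest kept probe stood for a gene. The array design used mm9, so no gene positions other than RefSeq promoter windows are given. No spot was saturated, and the local background median was 31 to 39.5 intensity units. The number of arrays limits the precision.

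The genotypes were compared in R 4.3.3 with the lmFit and eBayes functions of limma 3.58.1 on all 6 arrays, with Benjamini-Hochberg adjustment over 15306 genes. "Called" means an adjusted p under 0.05 and more than 1.5-fold (0.58 on the log2 scale), and intervals are 95% intervals of the fit. The test was checked on simulated data. Classes and lists are described by counts and medians, with no test. The members and lists were chosen with earlier results of these data known. The genes named are members called with the fold threshold, the 3 highest and 3 lowest of each class (large subunit, small subunit, initiation, elongation), the smallest adjusted p of each, paralog pairs, up to 4 called genes of each list, and Slc39a13. Members behind small counts and further pathway genes were named after their values were seen.

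Alternatives were 75th percentile scaling, normexp (offset 50) or no background correction (both on the median signal), the deposited table, other filters, the mean of probes, the methods' t-test, limma's trend and robust options, other thresholds, the replicate number or the position on the slide as a block, and leaving out each array. A slide or scan block could not be run with 1 slide and 1 scan.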

Additional observations from a re-analysis of the deposited data

How the results depend on the processing

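The ribosomal protein median (-0.23) lay between -0.26 and -0.13 over the alternatives, with -0.13 under 75th percentile scaling and -0.25 to -0.20 when 1 array was left out. The initiation median (-0.04) was 0.046 under 75th percentile scaling, 0.0073 with the position block and -0.05 to -0.01 when 1 array was left out, and the elongation median stayed between -0.22 and -0.09. The number of ribosomal proteins lower at the adjusted p (37) was 0 with 75th percentile scaling, 4 with the replicate block and 0 with the position block (23 at the unadjusted p), 68 with the methods' t-test unadjusted, 0 at an adjusted p under 0.01, and 0 to 19 when 1 array was left out. It was 36 to 52 in the other settings. Members called higher (1) numbered 2 with 75th percentile scaling, 0 with the position block, 0 with the methods' t-test after Benjamini-Hochberg, 4 with no fold threshold, 0 at an adjusted p under 0.01, and 0 to 2 when 1 array was left out. Members called lower (0) numbered 45 with no fold threshold and 0 to 0 when 1 array was left out. Over all genes, 1576 were called higher and 1282 lower. These counts were 0 and 7 with the position block (1702 and 1377 at the unadjusted p), 1007 and 721 with the methods' t-test after Benjamini-Hochberg, 2951 and 2330 with no fold threshold, 707 and 505 at an adjusted p under 0.01, and 968 to 1667 and 777 to 1472 when 1 array was left out. The position block puts all WT arrays and Zip13-KO replicate 1 in 1 block and Zip13-KO replicates 2 and 3 in another, so the genotype difference then rests on Zip13-KO replicate 1. For the 48 genes followed singly, 620 of 768 comparisons over 16 settings kept the call or its absence. Another 144 kept direction and lost the call, 4 gained it and 0 changed direction while called. The 620 include genes without a call whose difference changed sign, such as Rps24, which lay above 0 (0.04) with 75th percentile scaling. The replicate numbers did not pair the samples (correlations of deviations between equal numbers -0.02, 0.04 and -0.08), and not every sample correlated best with its own number. All genes' median moved to 0.03 under 75th percentile scaling. With 3 arrays per genotype, differences near 0.2 on the log2 scale were at the edge of what the test could call.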

Other observations

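The cytosolic aminoacyl-tRNA synthetases, the enzymes that charge tRNAs with amino acids, did not follow the ribosomal proteins in calls. Of 21 tested, 14 lay below 0 with a median of -0.07 on the log2 scale, and 0 passed the adjusted p (limma). The differences ran from -0.37 for Vars to 0.27 for Yars, both without a call.

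Among 10 genes of termination, recycling and poly(A) binding the median was 0.06, and 2 passed the adjusted p in opposite directions, both named after their values were seen. Pabpc1, the main cytoplasmic poly(A)-binding protein, gave 14.78, 14.79 and 14.81 in WT and 14.34, 14.43 and 14.48 in Zip13-KO samples and fell by 0.38 ± 0.072 (limma, adjusted p = 0.0130). Its message is known to begin with a pyrimidine run like those of ribosomal proteins. Paip2, which binds and inhibits that protein, gave 12.71, 12.68 and 12.83 against 13.07, 13.04 and 13.06 and rose by 0.32 ± 0.073 (limma, adjusted p = 0.0219). In both genes the genotypes did not overlap.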
